A study of Mus musculus with 3 samples.

Results

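The genes described here are the integrins, laminins, collagens and thrombospondins, with fibronectin (Fn1), perlecan (Hspg2), the nidogens Nid1 and Nid2, agrin (Agrn), dystroglycan (Dag1) and the syndecans Sdc1 and Sdc4. They were taken from the deposited table by gene symbol alone, with no use of measured values, and number 95 of the 56691 genes in it. The name pattern also takes Itgbl1, an integrin-like gene that encodes no receptor subunit, and it had no count in any library. RNA was sequenced from mouse gastric corpus organoids, which are epithelial structures grown in Matrigel, a gel of basement membrane proteins, under proliferative culture. There was 1 library in each of 3 groups, all with the label P5 in their titles. The mice were about 8 weeks old and carried Mist1Cre/ERT2, a drug-inducible Cre recombinase driven from the Mist1 locus, and RFPLSL, a red fluorescent reporter that Cre switches on. The design names Mist1Cre/ERT2;RFPLSL mice and Gpx4F/F;Mist1Cre/ERT2;RFPLSL mice, so the Cre and reporter alleles are in both lines and floxed Gpx4 in the second only. The Mist1- and Mist1+ organoids have the genotype label WT and the Gpx4 KO-Mist1+ organoids Gpx4 KO; which line each culture came from is not spelled out beyond that. The number of mice or clones behind a culture, how Mist1+ and Mist1- cells were separated and when Cre was induced are not given in the sources used here. Mist1+ is compared with Mist1- to set organoids from cells with Mist1 activity against those without, and Gpx4 KO-Mist1+ with Mist1+ to ask what the labelled loss of Gpx4 goes with.

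Epithelial cells sit on a basement membrane, a sheet in which laminin heterotrimers and type IV collagen networks are joined by nidogens and perlecan. Cells hold on to it through integrins, each a pair of an alpha and a beta subunit, and through dystroglycan and syndecans. Integrin alpha6 beta4 anchors hemidesmosomes, the beta1 integrins bind laminins and collagens, and alphav beta6 and alphav beta8 bind and activate latent TGF-beta. In the stomach, laminins and type IV collagen underlie the epithelium of the corpus glands, while fibrillar collagens are made mainly by fibroblasts of the lamina propria.

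Of the 95 genes, 32 reached an FPKM (fragments per kilobase of exon, scaled to the library total) of at least 1 in at least 1 library and 63 did not. Of those 63, 15 had no count in any library and 35 had at most 3 in each. The libraries held between 14943918 and 16396693 counts, and for the median length of these genes 3 counts correspond to an FPKM of at most 0.0287. The genes together took 0.290% of the counts of the Mist1- library, 0.474% of Mist1+ and 0.652% of Gpx4 KO-Mist1+. Each group is 1 library, so none of the differences below could be checked against replicates or tested. A fold compares counts after scaling to library totals, and its exact 95% interval covers counting error only. A gene is called higher or lower where FPKM plus 1 differs at least 2-fold, and tested means past the FPKM minimum of 1. In bulk RNA, fewer cells of a type and less RNA per cell cannot be told apart.

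Gpx4, the gene targeted in the third group, had 4399, 1998 and 2569 counts in the Mist1-, Mist1+ and Gpx4 KO-Mist1+ libraries. It was thus 1.27-fold (1.20 to 1.35) higher in the labelled knockout than in Mist1+; a count over the whole gene includes exons that a deletion may leave, so it does not check the deleted part. The group is therefore called the library labelled Gpx4 KO-Mist1+, or the labelled knockout. Bhlha15, which encodes Mist1, had 282, 580 and 370 counts in the same order. All 10 epithelial markers passed the FPKM filter, whereas none of 12 fibroblast and smooth muscle markers did, with summed FPKM between 0.17 and 0.78. Pdgfra, Pdgfrb, Lum, Des, Postn and Thy1 had no count in any library, whereas Tagln had 4, 13 and 11 counts and Rgs5 1, 19 and 8. Of 9 endothelial markers only Esam and Egfl7 passed, with a summed FPKM of the list between 3.39 and 7.65, and Emcn had no count. Of 9 leukocyte markers only Cd68 passed, a lysosomal protein gene that was 4.82-fold (3.89 to 6.02) higher in the labelled knockout than in Mist1+, while Ptprc had at most 1 count. The part of Cd68-bearing cells in the results was not tested. Of 8 squamous and basal markers none passed, and Trp63 had no count. Of 12 corpus lineage markers found 8 passed, with summed FPKM of 2839, 3574 and 2809, most of it from the pepsinogen gene Pgc. Single markers differed between the same libraries. Against Mist1-, Mist1+ was lower for the surface mucous cell genes Tff1 (7.25-fold, 6.79 to 7.75), Gkn1 (9.97-fold, 7.31 to 13.9) and Gkn2 (6.67-fold, 5.11 to 8.83) and for Tff2 (3.39-fold, 3.06 to 3.76). It was higher for the mucin gene Muc6 (3.49-fold, 3.29 to 3.71) and for Cblif, the intrinsic factor gene (2.04-fold, 1.99 to 2.09). Tff1, Tff2, Gkn1 and Gkn2 have 584 to 1250 exonic bases, Cblif 1537 and Muc6 15593. The ratio between these 2 libraries went with gene length, as described below. In the shortest of 5 length groups 20.4% of all genes were called lower in Mist1+, and in the longest 18.2% were called higher. Between the labelled knockout and Mist1+, Tff2 was called higher (2.11-fold, 1.89 to 2.35) and Gkn2 lower (4.32-fold, 2.44 to 8.17). The part of these lineage differences in the results below was not tested.

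The promoters of 5 genes are shown because their genes carry the main patterns below. The type IV collagen genes Col4a1 and Col4a2 lie head to head on chromosome 8, with RefSeq start sites 21 bases apart, so that they share 1 promoter region. The laminin gene Lama5 and the syndecan gene Sdc1 were highest in the labelled knockout, and the integrin gene Itgb8 was lowest there. Each window runs from 250 bases before to 50 bases after the RefSeq start, 5′ to 3′ on the gene's strand, on GRCm38.p6. They are chr8:11312777-11313076 on the minus strand for Col4a1, chr8:11312555-11312854 on the plus strand for Col4a2, chr2:180225810-180226109 on the minus strand for Lama5, chr12:8771146-8771445 on the plus strand for Sdc1 and chr12:119238227-119238526 on the minus strand for Itgb8. In the Col4a1 and Col4a2 windows, capitals mark the 78 bases that both windows cover, each read on its own strand. In the other windows they mark CCAAT or its reverse complement ATTGG, and Lama5 has neither.
Col4a1: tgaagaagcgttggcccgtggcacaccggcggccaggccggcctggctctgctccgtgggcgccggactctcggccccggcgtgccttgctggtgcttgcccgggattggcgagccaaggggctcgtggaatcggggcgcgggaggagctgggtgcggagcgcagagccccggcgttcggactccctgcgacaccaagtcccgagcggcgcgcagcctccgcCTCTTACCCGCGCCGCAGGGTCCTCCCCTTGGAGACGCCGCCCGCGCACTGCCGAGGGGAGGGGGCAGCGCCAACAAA
Col4a2: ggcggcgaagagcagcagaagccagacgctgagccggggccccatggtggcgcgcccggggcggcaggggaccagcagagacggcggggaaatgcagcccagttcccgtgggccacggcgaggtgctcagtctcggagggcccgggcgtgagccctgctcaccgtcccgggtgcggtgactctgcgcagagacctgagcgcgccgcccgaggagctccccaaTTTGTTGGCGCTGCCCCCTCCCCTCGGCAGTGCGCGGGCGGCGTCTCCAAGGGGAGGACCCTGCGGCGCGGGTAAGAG
Lama5: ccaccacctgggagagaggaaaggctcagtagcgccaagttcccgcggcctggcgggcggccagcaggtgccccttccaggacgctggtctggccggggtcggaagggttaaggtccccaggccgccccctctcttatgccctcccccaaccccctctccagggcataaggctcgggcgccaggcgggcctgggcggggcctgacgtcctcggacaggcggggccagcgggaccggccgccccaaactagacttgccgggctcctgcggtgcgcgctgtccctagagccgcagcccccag
Sdc1: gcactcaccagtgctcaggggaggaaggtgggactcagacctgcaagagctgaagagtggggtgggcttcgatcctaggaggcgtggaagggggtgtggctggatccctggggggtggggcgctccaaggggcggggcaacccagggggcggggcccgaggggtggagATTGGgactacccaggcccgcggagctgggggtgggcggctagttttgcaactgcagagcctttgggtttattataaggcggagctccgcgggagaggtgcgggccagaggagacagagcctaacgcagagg
Itgb8: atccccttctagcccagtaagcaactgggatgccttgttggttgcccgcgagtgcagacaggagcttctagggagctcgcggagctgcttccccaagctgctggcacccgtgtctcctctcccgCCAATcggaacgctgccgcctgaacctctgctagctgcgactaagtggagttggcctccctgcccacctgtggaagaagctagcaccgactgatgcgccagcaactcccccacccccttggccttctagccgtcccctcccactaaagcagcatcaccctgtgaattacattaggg

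RefSeq windows were found for 69 of the 95 genes and for 24 of the 32 that passed the filter, not including Thbs1 and Nid2. On either strand, CCAAT stood in a window of 9 of the 24 genes and in 37.4% of all 32851 windows. The 24 genes have 30 windows and count if any of theirs matches, so gene counts and shares of windows are unlike units. The letters ACGTG, the core of the hypoxia response element, stood in a window of 1 of the 24, Dag1, and in 19.6% of all windows. TGANTCA, the AP-1 site, stood in that of Itga3 alone and in 7.81% of all windows, and GGAATG, the TEAD site, in those of Col18a1, Col4a6, Itgb1 and Lamb3 and in 14.7% of all. The CArG box, bound by serum response factor, stood in that of Itgb6 and in 1.63% of all. Any of the genes described here on chromosome 18 were left out of this search. Overlaps between motifs were not examined, and a match is a description of letters in the window.

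Across the 32 genes, levels were lowest in Mist1- for 27 and highest in the labelled knockout for 25. For 22 of them the FPKM stepped up from Mist1- to Mist1+ to the labelled knockout, which is 68.8%, and 21.8% of the 13351 genes tested did the same. None was highest in Mist1-, where 32.6% of all genes tested were highest. The remaining 7 peaked in Mist1+, namely Thbs1, Itgb8, Itgb2l, Itgb5, Lamb3, Fn1 and Dag1. Some of these genes passed the filter only through a library where they are high: Col14a1, Col27a1, Col4a1, Col4a2, Col4a6 and Lamb1 reached an FPKM of 1 only in the labelled knockout and Itgb8 only in Mist1+, so their direction is partly set by the filter. The filter had a gap at its edge, with Col20a1 (0.81 FPKM at most) and Nid1 (0.76) just outside and Col4a6 (1.32) and Col27a1 (1.46) just inside.

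**Figure D1:**
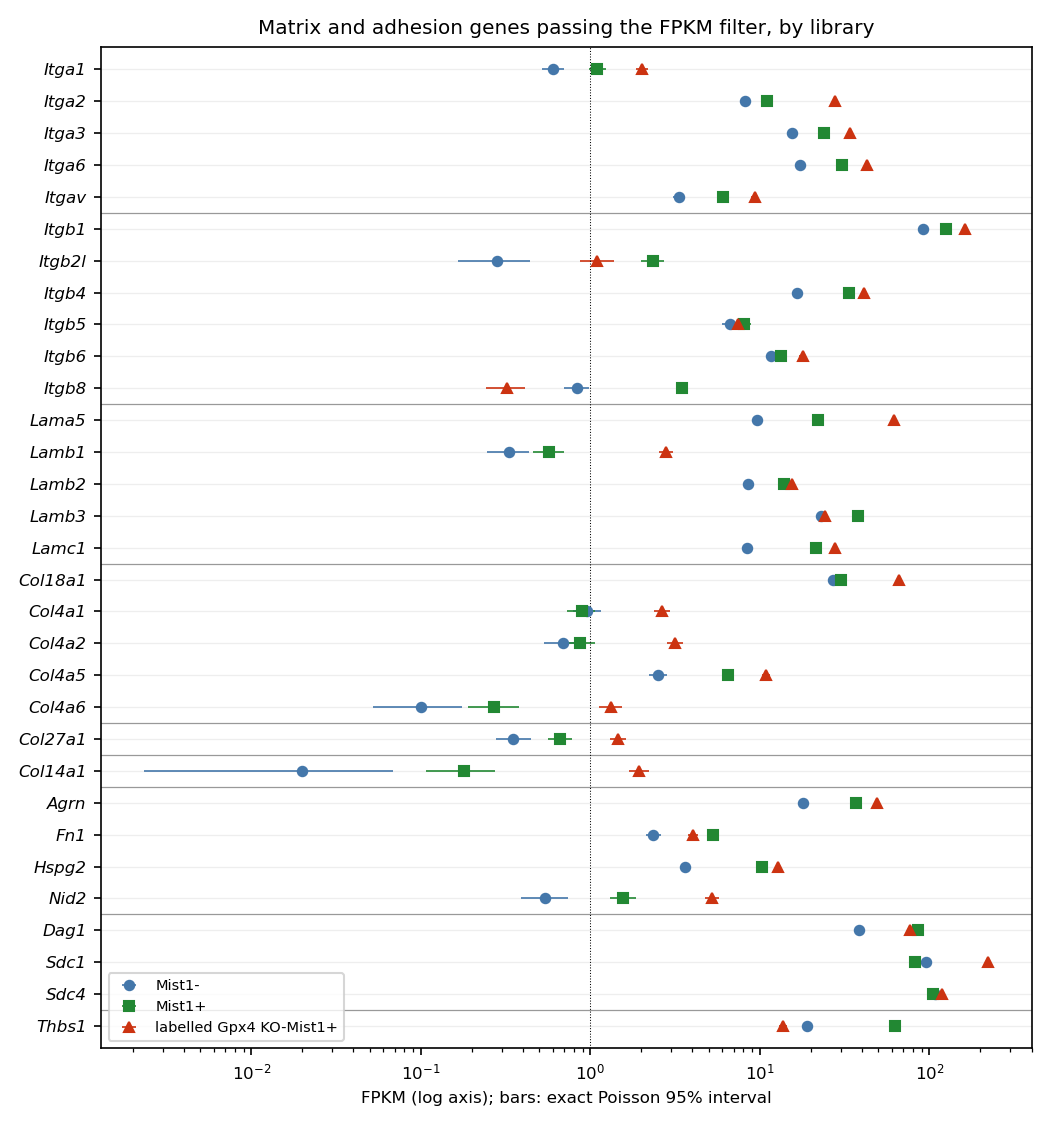
FPKM on a log axis for 31 of the 32 genes that passed the filter, grouped by role from integrin alpha subunits at the top to thrombospondin 1 at the bottom, in Mist1- (blue circles), Mist1+ (green squares) and the library labelled Gpx4 KO-Mist1+ (red triangles). Bars are exact Poisson 95% intervals. The red triangle is the rightmost symbol for 24 genes, and the green square for 7, among them Thbs1 and Itgb8.

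Gene length has to be read beside these values, because the Mist1- library differed from both others along it. Over the 13351 genes tested, the log2 ratio of Mist1+ to Mist1- had a Spearman rho of 0.49 with exonic length, as a description across genes that share 2 libraries. For the labelled knockout against Mist1+ it was -0.02, and for the labelled knockout against Mist1- it was 0.39. The 32 genes are long, with a median of 7066 exonic bases beside 3766 for all genes tested, and 19 of them fall in the longest of 5 equal groups of genes (6954 bases and more). In that group 18.2% of all genes were called higher in Mist1+ than in Mist1-, and the median log2 ratio was 0.63. Of the 19 genes 5 were called higher, with a median of 0.40. For the labelled knockout against Mist1+, 2.02% of all genes of that length were called higher and 0.749% lower, with a median of -0.07, and of the 19 genes 5 and 1 were, with a median of 0.56. The part of length in the Mist1+ and Mist1- values was not tested further than by removing its trend.

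**Figure D2:**
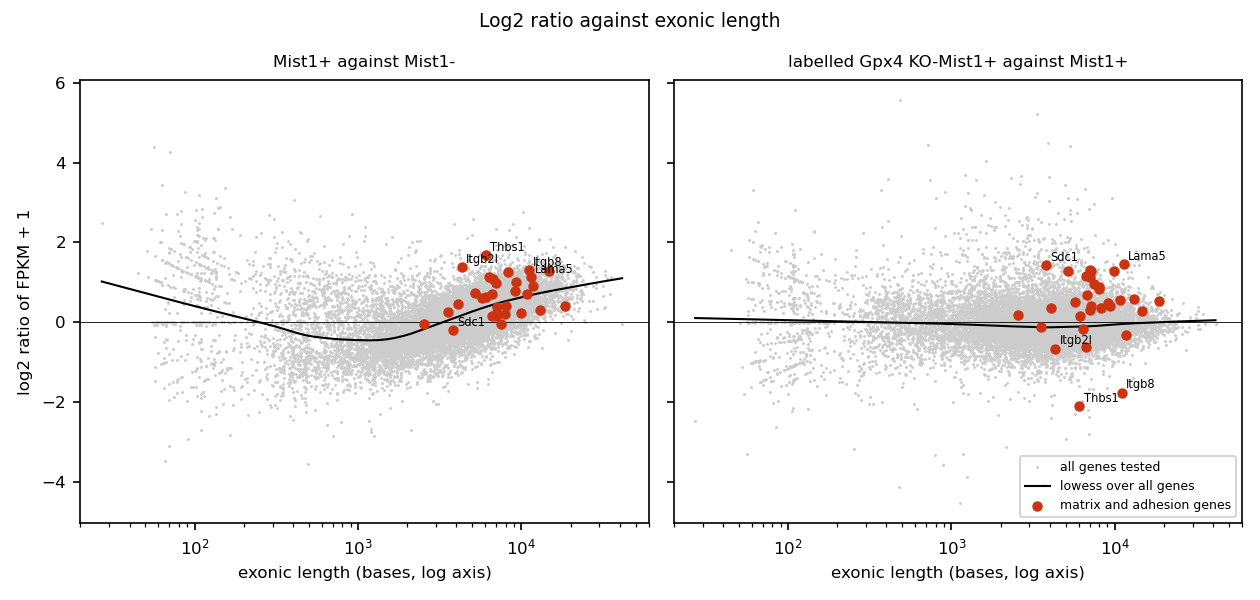
Log2 ratio of FPKM plus 1 against exonic length in bases (log axis) for the 13351 genes tested (grey), with a lowess line (black) and the 32 matrix and adhesion genes in red, for Mist1+ against Mist1- on the left and the labelled knockout against Mist1+ on the right. The line climbs with length on the left and stays near 0 on the right, where Thbs1 and Itgb8 lie far below it.

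In Mist1+ against Mist1-, 9 of the 32 genes were called higher and none lower, where 7.88% and 5.73% of all genes tested were. They were Thbs1, Itgb2l, Itgb8, Hspg2, Lamc1, Dag1, Lama5, Col4a5 and Agrn. The median log2 ratio of the 32 was 0.62, beside 0.15 for all genes tested. With the length trend removed the calls of Thbs1 and Itgb2l remained, with log2 ratios of 1.29 and 1.21, and those of the other 7 were lost. The median was then 0.22, and Col18a1, Lamb1, Itga2, Sdc4, Col14a1, Itgb6, Col4a6 and Col4a2 were among those that changed sign, so their order between Mist1- and Mist1+ given below does not hold under that setting. In the labelled knockout against Mist1+, 8 were called higher and 2 lower, where 4.81% and 2.74% of all genes tested were. The higher ones were Lama5, Sdc1, Col14a1, Nid2, Lamb1, Itga2, Col4a2 and Col18a1, and the lower ones Thbs1 and Itgb8. The median was 0.49, beside -0.09 for all genes. These 10 calls were also made with the length trend removed, on FPKM rescaled to a common sum (TPM) and with median ratio scaling. With a pseudocount of 5 only 5 of the 10 were kept, and Itgb8, at a low FPKM, lost its call. In the labelled knockout against Mist1-, 18 were called higher and none lower, where 11.6% and 8.56% of all genes were. That comparison shares its libraries with the other two, and with the length trend removed 7 were higher and 1, Itgb8, was lower. Among the 21 genes with a mean FPKM of at least 5 over the 3 libraries, a mean that 1 high library can still lift past 5 as for Col4a5 and Itgav, 4 were called higher and 1 lower in the labelled knockout against Mist1+. Of all 7722 genes at that mean, 3.51% were higher and 2.05% lower.

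**Figure D3:**
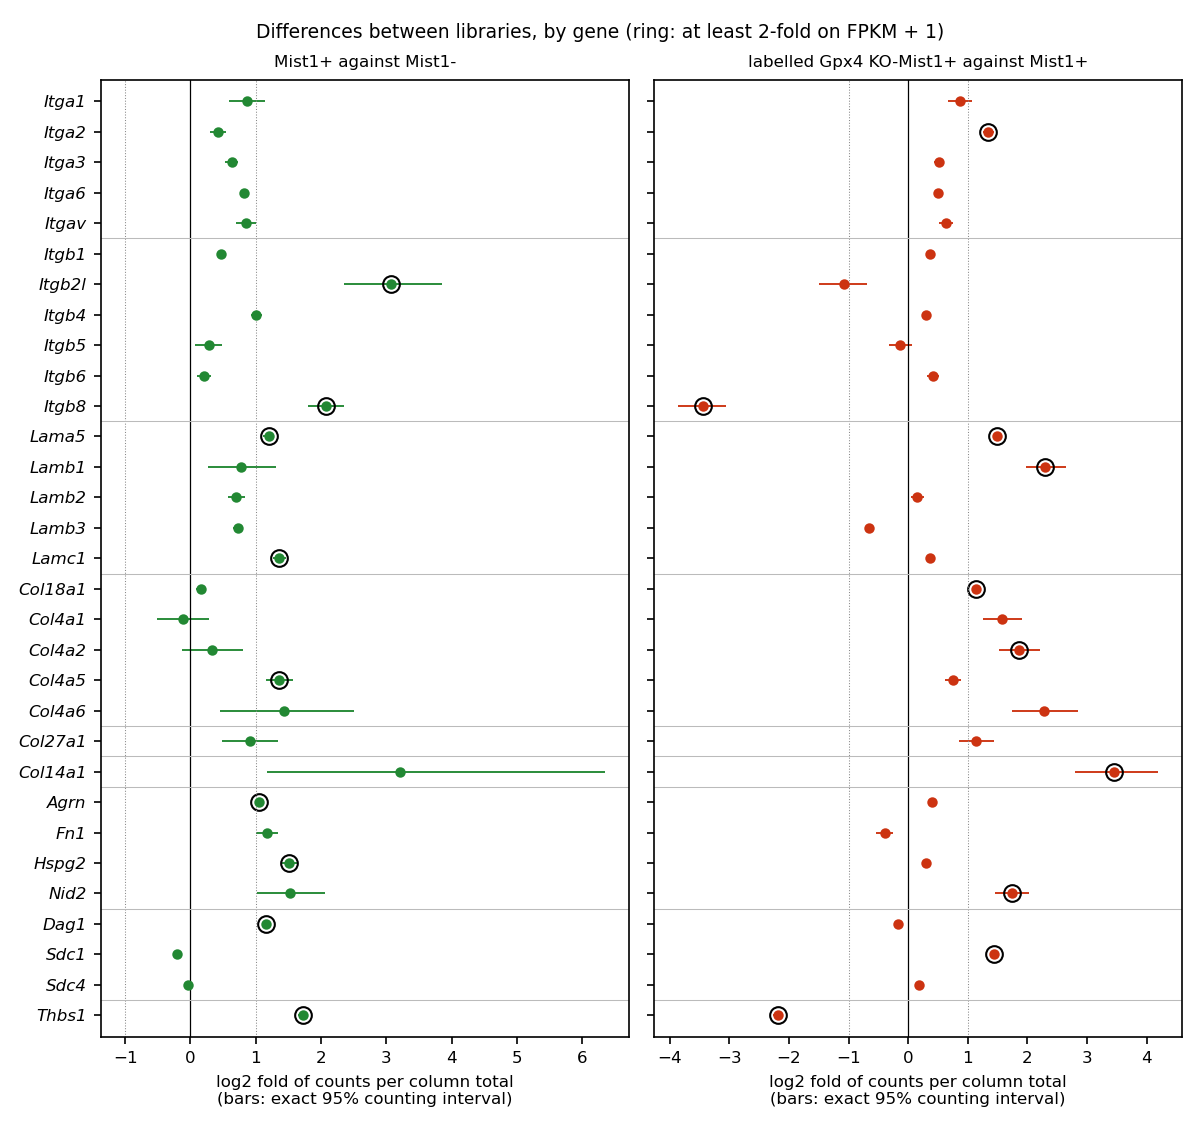
Log2 fold of counts scaled to library totals for the same 31 genes, in Mist1+ against Mist1- (left, green) and the labelled knockout against Mist1+ (right, red), with exact 95% counting intervals. Rings mark genes called higher or lower, 9 on the left and 10 on the right, and the dotted lines mark 2-fold. Both panels use the same Mist1+ library. Itgb8 and Thbs1 are ringed on the positive side on the left and on the negative side on the right.

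Laminins are built of an alpha, a beta and a gamma chain. Those that passed the filter include the chains of laminin-511 (Lama5, Lamb1, Lamc1) and laminin-521 (Lama5, Lamb2, Lamc1) and the beta chain Lamb3. Lama5, the alpha5 chain gene (chromosome 2, 180176373 to 180225859, minus strand, GRCm38), was at 9.56 FPKM in Mist1-, 21.96 in Mist1+ and 61.8 in the labelled knockout. It was 2.30-fold (2.17 to 2.44) above Mist1- in Mist1+ and 2.82-fold (2.72 to 2.92) higher again in the labelled knockout, the largest log2 ratio on FPKM plus 1 among the 32 genes there, at 1.45. Against Mist1- the labelled knockout stood 6.47-fold (6.14 to 6.82) higher, and the 3 intervals of its level do not overlap.

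The beta chain genes differed in pattern. Lamb1 was low at 0.33 FPKM in Mist1- and 0.57 in Mist1+ and stood at 2.80 in the labelled knockout, 4.94-fold (3.93 to 6.25) higher than in Mist1+. Lamb2 was at 8.52, 13.8 and 15.4 FPKM, so the labelled knockout was 1.11-fold (1.03 to 1.20) above Mist1+. Lamb3 was the most abundant beta chain gene in each library, at 22.9, 37.9 and 24.1 FPKM. It was highest in Mist1+, and the labelled knockout was 1.57-fold (1.5 to 1.65) lower than Mist1+ and within counting error of Mist1- (1.05-fold, 0.992 to 1.11).

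Lamc1, a gamma chain gene, was at 8.36 FPKM in Mist1-, 21.5 in Mist1+ and 27.6 in the labelled knockout, with its main step of 2.57-fold (2.39 to 2.76) between Mist1- and Mist1+. Lama3, an alpha chain gene whose product pairs with that of Lamb3, had 1 count in Mist1-, 1 in Mist1+ and 32 in the labelled knockout, and reached at most 0.18 FPKM. The chains Lama1, Lama2 and Lamc3 had at most 3 counts in any library, and Lama4 had 5, 5 and 18.

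Ratios between chain genes inside a library, taken as counts per exonic base, do not depend on how libraries are scaled to each other. The length trend between Mist1- and the other libraries does not cancel in them where the genes differ in length. The pairs given here and below all differ in length. Examples are Lama5 (11388 bases) with Lamb3 (6612) and with Lamc1 (8272), and Lamb3 with Lamb1 (9917). Among those below are Itgb8 (11060) with Itgb6 (7111), Itga6 (9142) with Itgb4 (7015) and Sdc4 (2547) with Sdc1 (3809). Lama5 was close to Lamc1 in Mist1- (1.14, 1.06 to 1.24) and in Mist1+ (1.02, 0.975 to 1.07) and at 2.24 times its level (2.16 to 2.32) in the labelled knockout. Lamb3 stood at 69.4 times Lamb1 (52.3 to 94.0) for Mist1-, 66.8 times (54.3 to 83.2) for Mist1+ and 8.60 times (7.78 to 9.52) for the labelled knockout. The order of Lama5 and Lamb3 turned, from 0.417 (0.391 to 0.444) and 0.580 (0.555 to 0.606) to 2.57 (2.46 to 2.68) in the labelled knockout.

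**Figure D4:**
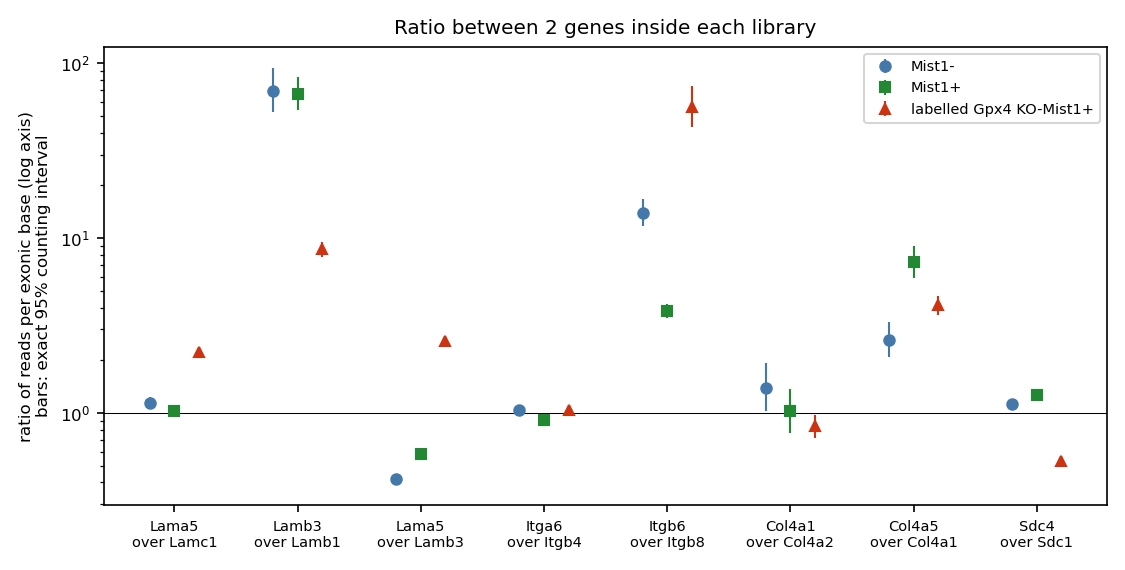
Ratio of counts per exonic base between pairs of genes inside each library (log axis), with exact 95% counting intervals, for Mist1- (blue circles), Mist1+ (green squares) and the labelled knockout (red triangles). Itga6 over Itgb4 lies near 1 in all 3 libraries, whereas Lamb3 over Lamb1 is 8.60 in the labelled knockout against 69.4 and 66.8, and Itgb6 over Itgb8 is lowest in Mist1+ at 3.84.

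Of 18 integrin alpha genes 5 passed the filter, and each of the 5 had its lowest level in Mist1- and its highest in the labelled knockout. Itga2, the subunit of the collagen-binding integrin alpha2 beta1, was at 8.17, 10.95 and 27.8 FPKM and was 2.54-fold (2.38 to 2.71) higher in the labelled knockout than in Mist1+. Itga1, the other widely used collagen-binding subunit, was low at 0.60, 1.10 and 2.01 FPKM and was 1.82-fold (1.59 to 2.09) higher. The laminin-binding subunits Itga3 and Itga6 were at 15.5, 24.0 and 34.2 FPKM and at 17.2, 30.5 and 42.9 FPKM. Both stood about as far above Mist1+ in the labelled knockout, at 1.42-fold (1.35 to 1.5) and 1.41-fold (1.36 to 1.46). Itgav, which pairs with several beta subunits to bind RGD-bearing ligands, was at 3.34, 6.02 and 9.32 FPKM, and 1.55-fold (1.43 to 1.67) higher.

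The 13 alpha genes below the filter had at most 52 counts. Among them are those of leukocytes, with Itgam and Itgad at 0 in each library and Itgal at 5, 7 and 0 counts. Itga5, the fibronectin receptor subunit, had 12, 30 and 32 counts (at most 0.40 FPKM), and the small counts of Itga7 (8, 6 and 52) and Itga9 (4, 5 and 39) were highest in the labelled knockout.

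Of 9 integrin beta genes 6 passed. Itgb1, the common partner of most alpha subunits, was the most abundant integrin gene, at 91.3, 126 and 162 FPKM, and was 1.29-fold (1.25 to 1.32) higher in the labelled knockout than in Mist1+. Itgb4, which pairs with alpha6 only, was at 16.6, 33.4 and 41.1 FPKM. The ratio of Itga6 to Itgb4 was 1.04 (0.975 to 1.10) for Mist1-, 0.912 (0.873 to 0.952) for Mist1+ and 1.04 (1.01 to 1.08) for the labelled knockout, so the alpha6 and beta4 genes stood at nearly equal levels. Itgb5 was at 6.69, 8.10 and 7.40 FPKM, and its difference between the labelled knockout and Mist1+ was within counting error (0.913-fold, 0.799 to 1.04).

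The epithelial TGF-beta activating subunits Itgb6 and Itgb8 differed in pattern. Itgb6 was at 11.6, 13.4 and 17.9 FPKM, 1.33-fold (1.25 to 1.43) higher in the labelled knockout than in Mist1+. Itgb8 (chromosome 12, 119158022 to 119238802, minus strand, GRCm38) had 137 counts in Mist1-, 624 in Mist1+ and 58 in the labelled knockout, which are 0.83, 3.49 and 0.32 FPKM. Mist1+ stood alone as the high library, 4.20-fold (3.49 to 5.10) above Mist1- and 10.9-fold (8.32 to 14.5) above the labelled knockout. Its call against Mist1- was lost with the length trend removed (log2 ratio 0.63), whereas that in the labelled knockout against Mist1+ was made under the same setting. Itgb6 stood at 14.0 times Itgb8 (11.7 to 16.8) for Mist1-, 3.84 times (3.50 to 4.22) for Mist1+ and 55.8 times (43.0 to 73.8) for the labelled knockout. The Itgb8 window printed above starts from the RefSeq start, which lies inside the GENCODE gene.

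Itgb2l, a little-studied relative of the leukocyte subunit gene Itgb2, had 18 counts in Mist1-, 163 in Mist1+ and 78 in the labelled knockout. It was 8.36-fold (5.13 to 14.5) above Mist1- in Mist1+ and 2.12-fold (1.61 to 2.81) lower in the labelled knockout than in Mist1+, at an FPKM of at most 2.33. Itgb2 itself had 0, 1 and 3 counts, and Itgb3 and Itgb7 had at most 5.

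Collagens made up 44 of the 95 genes, and 37 of them did not pass the filter. Of the 44, 22 had at most 3 counts in every library. The fibrillar collagens of connective tissue were near 0, with Col1a1 at 6, 1 and 12 counts, Col1a2 at 0, 1 and 0 and Col3a1 at 2, 1 and 0. The hemidesmosomal collagen Col17a1 had 2, 2 and 4 counts, though its hemidesmosome partners Itga6 and Itgb4 were among the higher genes. Col7a1, the anchoring fibril collagen, had 15, 29 and 23.

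Of the basement membrane collagens, Col18a1 was the most abundant. Its protein carries the endostatin domain, and it stood at 26.8 FPKM in Mist1-, 30.1 in Mist1+ and 66.4 in the labelled knockout, 2.21-fold (2.12 to 2.30) above Mist1+ and with the wild-type libraries close together. Col4a1 and Col4a2, the chains of the most common type IV collagen trimer, had 107, 107 and 323 counts and 68, 93 and 342 counts. Both were low and alike in the wild-type libraries and higher in the labelled knockout, by 2.98-fold (2.39 to 3.74) and 3.63-fold (2.88 to 4.62) over Mist1+. Their ratio inside a library was 1.4 (1.02 to 1.92), 1.02 (0.766 to 1.36) and 0.838 (0.717 to 0.978), so the genes of the shared promoter region printed above stood close to each other in each library. On FPKM plus 1 Col4a2 was called, at a log2 ratio of 1.15, and Col4a1 was not, at 0.95.

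Another linked type IV pair, Col4a5 and Col4a6 on chromosome X, has start sites 1343 bases apart and unequal levels. Col4a5, the alpha5 chain gene, was at 2.51, 6.46 and 10.9 FPKM, the highest type IV chain gene in each library, and 1.68-fold (1.53 to 1.85) higher in the labelled knockout than in Mist1+. Col4a6 had 12, 35 and 172 counts and was 4.85-fold (3.36 to 7.19) higher. The ratio of Col4a5 to Col4a6 was 24.9 (14.0 to 48.9) for Mist1-, 23.8 (17.0 to 34.5) for Mist1+ and 8.26 (7.03 to 9.75) for the labelled knockout. Col4a3 and Col4a4, which lie head to head on chromosome 1, were far below the filter, with 2, 13 and 3 counts and 2, 18 and 4 counts, both highest in Mist1+.

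Col14a1, a fibril-associated collagen usually found in connective tissue (chromosome 15, 55307750 to 55520803, plus strand, GRCm38), had 2 counts in Mist1-, 20 in Mist1+ and 222 in the labelled knockout. It was 11-fold (6.93 to 18.3) higher in the labelled knockout than in Mist1+, at an FPKM of 1.93. None of the 12 fibroblast and smooth muscle markers passed the filter, with a summed FPKM of 0.78 in Mist1+ and 0.48 in the labelled knockout. In the labelled knockout Pdgfra, Pdgfrb, Lum and Thy1 were at 0 counts and Dcn at 1, while Tagln had 11 and Rgs5 had 8. The cell source of the Col14a1 counts was not tested. Col27a1, a fibrillar collagen gene, had 69, 140 and 312 counts and was 2.2-fold (1.80 to 2.71) higher, and Col20a1, with 10, 19 and 68 counts, stayed below the filter.

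Among the linkers and proteoglycans of the basement membrane, Nid2, which joins laminin to type IV collagen, had the widest span, at 0.54, 1.56 and 5.22 FPKM. It was 3.34-fold (2.74 to 4.09) higher in the labelled knockout than in Mist1+ and 9.61-fold (7.0 to 13.5) higher than in Mist1-. Of its exonic bases 8.45% also lie in exons of Rtraf on the opposite strand, which had 2608, 1573 and 1845 counts. Exons of other genes also cover 7.7% of the exonic bases of Itgb4, 5.9% of Itgav and 3.7% of Itga1, the last on the same strand. The part of such overlaps in the counts was not tested. Nid1, the relative of Nid2, had 23, 53 and 86 counts and did not pass.

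Hspg2, the perlecan gene, was at 3.62, 10.3 and 12.7 FPKM and Agrn, the agrin gene, at 17.9, 37.1 and 49.0. For both the larger step was between Mist1- and Mist1+, at 2.85-fold (2.63 to 3.09) and 2.07-fold (1.98 to 2.18), and neither call was made with the length trend removed (log2 ratios 0.52 and 0.42). Fn1, which encodes fibronectin, was at 2.35, 5.31 and 4.04 FPKM and was 1.32-fold (1.20 to 1.45) lower in the labelled knockout than in Mist1+.

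The non-integrin receptors differed from each other. Dag1, whose product binds laminin and agrin, was at 38.5 FPKM in Mist1-, 85.9 in Mist1+ and 76.6 in the labelled knockout, with Mist1- as the low library. Sdc1, a heparan sulfate proteoglycan of epithelial surfaces (chromosome 12, 8771323 to 8793715, plus strand, GRCm38), had 5434, 5090 and 13924 counts, or 95.5, 82.6 and 223 FPKM. It was 2.70-fold (2.62 to 2.79) higher in the labelled knockout than in Mist1+, and Mist1+ was 1.16-fold (1.11 to 1.20) below Mist1-, a direction that turned on TPM. At 3809 bases Sdc1 is among the shorter of these genes. Sdc4, a syndecan of focal adhesions, was at 107, 105 and 118 FPKM, and the ratio of Sdc4 to Sdc1 went from 1.12 (1.08 to 1.17) in Mist1- and 1.27 (1.22 to 1.32) in Mist1+ to 0.530 (0.513 to 0.547) in the labelled knockout.

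Thbs1 was the thrombospondin gene that passed, and the other three had at most 46 counts. Its product, thrombospondin 1, is a secreted glycoprotein that binds CD47 and several integrins and can activate latent TGF-beta. Thbs1 (chromosome 2, 118111876 to 118127133, plus strand, GRCm38) had 1711 counts in Mist1-, 6142 in Mist1+ and 1367 in the labelled knockout, or 18.9, 62.5 and 13.7 FPKM. Mist1+ was high, 3.31-fold (3.14 to 3.50) above Mist1- and 4.55-fold (4.29 to 4.83) above the labelled knockout. The labelled knockout was also below Mist1-, by 1.37-fold (1.28 to 1.48). Of its exonic bases 3.43% lie in exons of a predicted gene on the opposite strand, Gm29233, which had at most 8 counts. Thbs3 had 11, 27 and 46 counts, in the direction of most of these genes rather than of Thbs1.

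Genes that work with the matrix were taken from 6 lists by their known function, with earlier results of these data known. Their counts are to be read against the shares of all genes tested, 4.81% called higher and 2.74% lower in the labelled knockout against Mist1+ and 7.88% and 5.73% in Mist1+ against Mist1-. Of 22 tested genes of focal adhesions and integrin activation, 3 were called higher and none lower in the labelled knockout against Mist1+, with a median of -0.15. Tns4, a tensin that binds the beta1 tail, was at 8.00, 7.25 and 70.4 FPKM, 9.72-fold (8.94 to 10.6) higher. Cav1, the caveolin gene, was another, at 10, 7 and 163 counts. It reached an FPKM of 1 only in the labelled knockout, so its direction is partly set by the filter. In Mist1+ against Mist1- the same list had 4 higher and none lower, with a median of 0.63. The longest of the 5 length groups of all genes has the same median of 0.63, with 18.2% called higher. Vinculin, Vcl, was at 1.9, 9.80 and 15.8 FPKM, 5.17-fold (4.49 to 5.97) above Mist1- in Mist1+, and Tns3 2.91-fold (2.66 to 3.19) higher.

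Of 11 tested hemidesmosome and integrin partner genes none was called higher or lower in the labelled knockout than in Mist1+, with a median of 0.13. The plectin gene Plec, at 2.73, 6.58 and 6.93 FPKM, was 2.41-fold (2.21 to 2.63) above Mist1- in Mist1+, and the tetraspanin gene Tspan8, at 857, 423 and 505, was at a log2 ratio of -1.02. Plec, with 18113 exonic bases, is in the longest length group, where 18.2% of all genes were called higher in Mist1+.

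Of 17 tested genes for collagen hydroxylation, folding and cross-linking, 4 were called higher and none lower in the labelled knockout against Mist1+, with a median of 0.21. Plod2, a collagen lysyl hydroxylase gene, was at 3.76, 3.46 and 25.0 FPKM, 7.24-fold (6.41 to 8.19) higher. The prolyl 4-hydroxylase subunit genes P4ha1 and P4ha2 were 3.67-fold (3.43 to 3.94) and 3.41-fold (3.0 to 3.88) higher, and the fourth was the lysyl oxidase-like gene Loxl4. Loxl4 reached an FPKM of 1 only in the labelled knockout, so its direction is partly set by the filter. P4ha1 stood at 27.1, 15.5 and 56.9 FPKM and P4ha2 at 4.39, 3.03 and 10.3, so Mist1+ was the lowest library for both. Mia3, which loads collagen into secretory vesicles, was 2.53-fold (2.41 to 2.64) above Mist1- in Mist1+ and 1.29-fold (1.25 to 1.34) lower in the labelled knockout than in Mist1+. With 7161 exonic bases, Mia3 is also in the longest length group.

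Of 14 tested matrix protease and inhibitor genes, 3 were called higher and none lower in the labelled knockout against Mist1+. The plasminogen activator gene Plat was 2.93-fold (2.70 to 3.18) higher, at 9.47, 8.02 and 23.5 FPKM, and Timp3 had 16, 22 and 219 counts. Timp3 reached an FPKM of 1 only in the labelled knockout, so its direction is partly set by the filter. Adam9 was at 35.7, 58.1 and 80.5 FPKM, and in Mist1+ against Mist1- no gene of this list was called in either direction.

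Of 11 tested genes of TGF-beta ligands, latency and receptors, 4 were called higher and 1 lower in the labelled knockout against Mist1+, with a median of 0.41. Tgfb3 was at 9.30, 12.2 and 54.8 FPKM, 4.5-fold (4.14 to 4.90) higher, and Ltbp3, a latent TGF-beta binding protein gene, at 1.44, 1.71 and 10.2 FPKM, 5.96-fold (5.21 to 6.84) higher. Smad3 was 2.12-fold (1.94 to 2.31) higher, and Tgfb1 was the fourth. Ltbp4 was 2.90-fold (2.54 to 3.32) lower in the labelled knockout and 3.09-fold (2.68 to 3.57) above Mist1- in Mist1+, with Mist1+ as the high library as for Thbs1 and Itgb8.

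Of 15 tested genes of other matrix proteins and collagen receptors, 2 were called higher and 2 lower in the labelled knockout against Mist1+. The hyaluronan receptor gene Cd44 was at 29.8, 29.9 and 113 FPKM and Efemp1, a fibulin gene, at 21.2, 14.0 and 36.7. Smoc2, a matricellular gene, was at 1.89, 7.45 and 1.64 FPKM, 4.54-fold (3.87 to 5.35) lower in the labelled knockout, and its relative Smoc1 was the other lower one. Npnt, which encodes the integrin ligand nephronectin, was 2.02-fold (1.78 to 2.28) higher by counts.

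**Figure D5:**
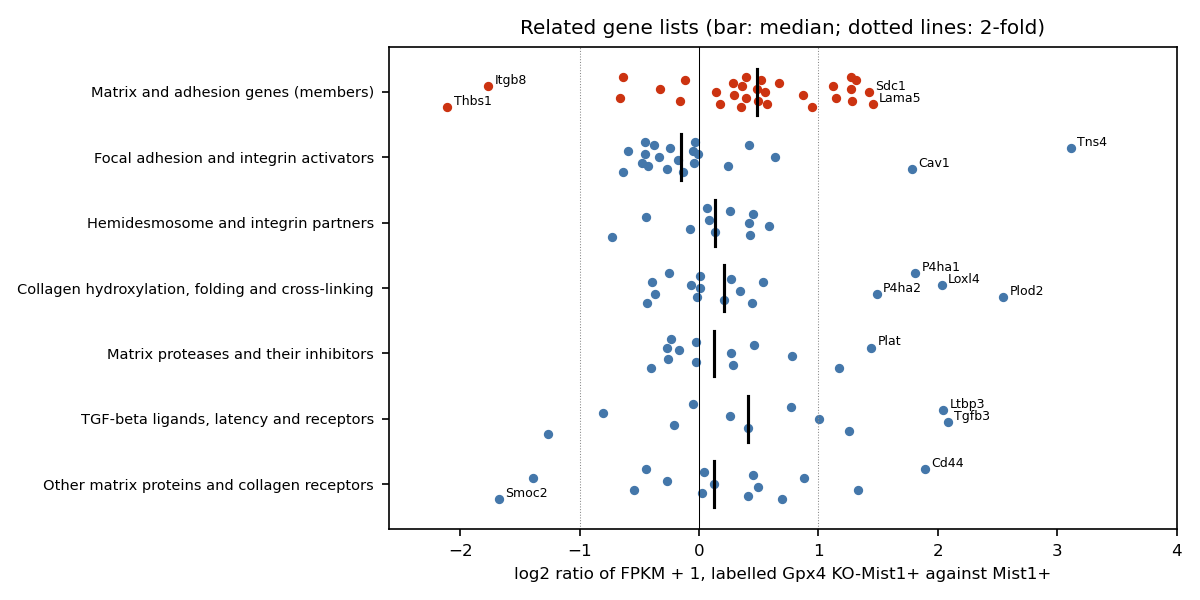
Log2 ratio of FPKM plus 1 in the labelled knockout against Mist1+ for 31 of the 32 matrix and adhesion genes (red) and for tested genes of 6 related lists (blue), with the median over all tested genes of each as a black bar and dotted lines at 2-fold. The median is 0.49 for the red genes and -0.15 for focal adhesion genes, and single genes such as Tns4 and Plod2 lie far to the right of their lists.

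The annotation in the deposited table places 28 of the 32 genes in the KEGG map of ECM-receptor interaction. The 9 other genes tested in that map had 1 called higher and none lower in the labelled knockout against Mist1+, with a median log2 ratio of 0.41. In Mist1+ against Mist1- their median was -0.05. The map of focal adhesion holds 23 of the 32 genes and 119 other genes tested. Of these 119, 8 were called higher and 2 lower in the labelled knockout against Mist1+, with a median of -0.04. Their median in Mist1+ against Mist1- was 0.43. Over all genes tested, 4.81% were called higher and 2.74% lower in the labelled knockout against Mist1+, with a median of -0.09. In Mist1+ against Mist1- the median of all genes was 0.15.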

How the data were processed

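RNA of 3 organoid cultures was analysed from 1 deposited table of 56691 genes. The tools named in the submitters' processing notes are HISAT2 2.2.1, HTSeq 0.6.1 and cutadapt 1.9.1, and the build is GRCm38.p5; the strand setting and annotation release are not given in the sources used here. Per the file headers the authors deposited for each library a whole-number count and a value in FPKM, which matched count over exonic length and library total to within 2.85% for genes of at least 50 counts. Genes without a symbol, at most 0.298% of counts, stayed in the totals. Exonic lengths cover all exons of a gene, so levels compared between genes are approximate.

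Computation used scipy 1.17.1, pandas 2.3.3, numpy 2.4.6, matplotlib 3.10.9 and statsmodels 0.14.6 under Python 3.11.15. The 13351 genes whose FPKM reached 1 in any library were compared as log2 ratios after a pseudocount of 1 was added, and 2-fold was the call. No p-value was computed, since no group has replicates. Levels have exact Poisson and folds exact binomial 95% intervals. The call rule and intervals were tested on simulated data. Coordinates are from GENCODE M21 on GRCm38, not from the table, whose positions differ from it. Of the 95 genes, 29 were named in full by rule: FPKM of at least 5 in some library, or a call in any of the 3 comparisons. Each related list gave up to 4 genes with the largest absolute log2 ratios at such an FPKM. Other genes named with their values were chosen after these were seen. Some genes that meet the rule are counted but not reported here. The genes and lists were chosen with earlier results of these data known. The calls and medians of these genes, the log2 ratios of genes named by rule and the list calls were recomputed under other settings. These were the pseudocount at 0.1 or 5, the FPKM minimum dropped or raised to 5, TPM, median ratio scaling, or the length trend taken out by lowess (fraction 0.3). The order of the 3 libraries, length groups, markers, KEGG values, genes at a mean FPKM of 5 and ratios inside a library were not recomputed.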

Additional observations from a re-analysis of the deposited data

How the results depend on the processing

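No paired analysis was possible because each group holds 1 library. In Mist1+ against Mist1- the count of the 32 genes at least 2-fold higher, 9 as reported, was 2 with a pseudocount of 5, 15 when TPM was used, 5 under median ratio scaling and 2 with the length trend removed. The median log2 ratio, 0.62 as reported, was 0.80 with a pseudocount of 0.1, 0.42 with one of 5, 0.027 without a filter (95 genes), 0.97 for TPM, 0.41 under median ratio scaling and 0.22 with the length trend removed. In the labelled knockout against Mist1+, 8 higher and 2 lower became 4 and 1 with a pseudocount of 5, and 5 and 1 among the 23 genes with FPKM of at least 5. The median of 0.49 became 0.33 with a pseudocount of 5 and 0.00 without a filter. In the labelled knockout against Mist1-, 18 higher became 10 with a pseudocount of 5 and 7 with the length trend removed, and 0 lower became 1 with a pseudocount of 0.1 and 1 with the length trend removed. The median of 1.16 became 1.34 with a pseudocount of 0.1, 0.69 with one of 5, 0.066 without a filter, 1.57 for TPM and 0.76 with the length trend removed. Without a filter, 63 genes near 0 enter the median, and a higher FPKM minimum leaves fewer genes; for the other settings the cause was not tested. None of the 29 named genes changed its direction in a comparison where it was called, under those of the 7 alternatives that tested it. Smaller differences did: in Mist1+ against Mist1- the sign turned for 9 of 29 named genes with the length trend removed (among them Col18a1, Lamb1, Itga2, Sdc4, Col14a1, Itgb6, Col4a6 and Col4a2), for Sdc1 and Sdc4 when TPM was used and for Col18a1 and Itgb6 under median ratio scaling. In the labelled knockout against Mist1+ it turned for Itgb5 alone, with the length trend removed. Against Mist1- it turned for Fn1 and Lamb3 with the trend removed and for Sdc4 and Lamb3 under median ratio scaling. Among named genes of the related lists, signs turned in Mist1+ against Mist1- for Tns4, Plat, Plod2 and Npnt on TPM. There they also turned for Cd44 under median ratio scaling and for Cd44 and Ltbp3 with the trend removed. In the labelled knockout against Mist1- they turned for Smoc2 on TPM and for Ltbp4 under the other 2 of these settings. The list calls under other settings are not reported here. TPM moved the median of all genes from 0.15 to 0.47 in Mist1+ against Mist1- and their higher and lower calls from 1052 and 765 to 3101 and 510, and median ratio scaling moved them to -0.02 and to 643 and 1219. In the labelled knockout against Mist1- those calls went from 1553 and 1143 to 3223 and 797 and to 1273 and 1504. Genes with few counts, such as Col14a1 and Itgb2l in Mist1-, have wide intervals at this depth.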
